A study of Mus musculus with 16 samples.

Results

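Ubiquitin-conjugating enzymes (E2s) were described in sorted mouse CFU-E cells through every gene whose symbol begins with Ube2. The RNA-seq table held 35 such symbols among 15386 genes, and 32 of them were also in the m6A table of 13490 genes. Of the 35, 2 were pseudogenes (Ube2d-ps and Ube2n-ps1), and Ube2cbp shares the prefix but encodes an E3-type protein, known also as UBE3D, that binds UBE2C. The remaining 32 encode E2s or their catalytically inactive relatives UBE2V1 and UBE2V2.

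Mettl3 encodes the catalytic subunit of the enzyme that writes N6-methyladenosine (m6A) on mRNA, and the study asked what its loss does to red cell formation. The RNA-seq libraries were 3 of control CFU-E cells and 3 of CFU-E Kit-lo cells, the Mettl3-deficient CFU-E population that carries little of the receptor Kit on its surface. The m6A experiment (SLIM-seq) had 2 immunoprecipitated (IP) and 2 input libraries, all of control CFU-E cells. Another 6 samples, of proerythroblasts, were not analysed here.

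All mice were adults of both sexes on a C57BL/6 background, and the deficient cells came from the Mettl3 fl/fl EpoR Cre/- genotype. Their EpoR-tdTomato-Cre recombines in erythroid cells and in macrophages of the erythroblastic island. The labels name the other group only as control, without its alleles, and name no drug or other agent for either group. The RNA-seq groups therefore differed both in genotype and in the Kit gate, and the part of each cannot be told apart, since control cells of the Kit-lo gate were not analysed here. The labels do not say whether libraries of a group came from separate mice, so p-values measure the spread between these libraries, which may be technical.

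Library totals ran from 17429262 to 21329242 counts for RNA-seq and from 19421059 to 37142742 for SLIM-seq. Mettl3 mRNA was at 123 ± 7.43 CPM (normalised read count, scaled to library size by TMM, SD, n = 3) in control CFU-E and 117 ± 9.52 CPM (SD, n = 3) in the other group. The log2 fold change was -0.07 with an adjusted p of 0.634 (edgeR), so the counts per gene do not show the deletion and the genotype of these libraries rests on the labels. In erythroid cells of this genotype the paper reports loss of Mettl3 mRNA by qRT-PCR, loss of its protein and less total m6A. Kit was lower in the Kit-lo libraries by edgeR, with a log2 fold change of -3.44 and an adjusted p of 4.31e-07. The summed level of 10 erythroid markers was 4320 to 4670 CPM in control CFU-E and 6940 to 7550 CPM in CFU-E Kit-lo, and 6 of the 10 were called higher. The summed levels of 9 macrophage markers, 9.04 to 14.5 and 8.45 to 10.5 CPM, overlapped, and those of 5 mast cell and basophil markers were 32.9 to 41.5 and 1.92 to 5.01 CPM. Of these 5, which include Gata2, 2 were tested and 1 was called lower. The macrophage marker Adgre1, the mast cell marker Cpa3 and the stem cell marker Mecom were at 0 in all Kit-lo libraries. For 9 granulocyte markers the sums were 25.8 to 39.2 and 16.1 to 24.8 CPM, for 5 megakaryocyte markers 110 to 136 and 108 to 159 CPM, and for B cell, T cell and stem cell markers under 5 CPM in every library. Of the 5 megakaryocyte markers, 2 were called higher and 0 lower. Of 6 macrophage markers tested, 1 was called lower, and of 4 granulocyte markers tested, 1 was called higher and 1 lower. Over all genes tested, 12.1% were called higher and 9.83% lower, by the thresholds given below. The part of these other cells in the results below was not tested. In bulk libraries, fewer cells of a type and less RNA per cell cannot be told apart.

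Ubiquitin is passed along a relay. An E1 enzyme activates it, an E2 carries it as a thioester on a cysteine, and an E3 ligase brings the loaded E2 to a substrate. Several E2s carry relatives of ubiquitin instead, such as SUMO, NEDD8 or ISG15. In late erythroid cells most of the proteome is removed, and the E2s UBE2O and UBE2H are known for their high level in reticulocytes. UBE2O is a large enzyme with both E2 and E3 activity that marks unassembled ribosomal proteins and globin for the proteasome, and UBE2H works with the CTLH ligase, whose subunit MAEA is needed for erythroblast maturation.

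Most E2s share a short motif, His-Pro-Asn, ahead of the catalytic cysteine. In the principal transcripts of GENCODE M21, 20 of the 33 protein-coding Ube2 genes had His-Pro-Asn followed by a cysteine 10 or 11 residues on, and 13 did not, among them Ube2o, Ube2e1, Ube2j1, Ube2w and the inactive Ube2v1 and Ube2v2. The stretch is shown for members that the results below turn on, from GRCm38, with the codons of His-Pro-Asn and of the cysteine in capitals. Ube2h has 1 codon more between them than the others. The stretches lie at chr6:30241409-30242557 (minus strand, spliced from separate exons) for Ube2h, chr2:84806439-84806471 (plus) for Ube2l6, chr4:41174110-41183259 (plus, spliced) for Ube2r2, chr10:71258250-71258282 (minus) for Ube2d1, chr7:4810479-4810511 (minus) for Ube2s and chr7:13036226-13036258 (minus) for Ube2m.
Ube2h: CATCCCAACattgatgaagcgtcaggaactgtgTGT
Ube2l6: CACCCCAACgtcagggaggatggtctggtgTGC
Ube2r2: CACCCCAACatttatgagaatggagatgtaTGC
Ube2d1: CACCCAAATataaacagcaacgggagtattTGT
Ube2s: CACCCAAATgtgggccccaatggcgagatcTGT
Ube2m: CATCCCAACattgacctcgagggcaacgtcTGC

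A further set of sequences is given beside the m6A comparison. GGACT is among the commonest contexts in which mRNA is methylated, at the A. Ube2h, the only member called in both experiments, held 5 copies in its principal transcript, of which 1 was coding and 4 were in the 3′UTR. They are shown from first to last with GGACT in capitals, each with 10 bases on either side, from the minus strand of chromosome 6 of GRCm38 (chr6:30262175-30262199, chr6:30214201-30214225, chr6:30214127-30214151, chr6:30213519-30213543 and chr6:30211484-30211508). The counts are per gene and do not show whether any of these sites is methylated.
Ube2h coding: aatcctaggaGGACTcaatgaattc
Ube2h 3′UTR 1: tgagcgagcaGGACTggaggagacg
Ube2h 3′UTR 2: tccattgcctGGACTgagctgtgaa
Ube2h 3′UTR 3: atgtcccactGGACTaacctttctt
Ube2h 3′UTR 4: gagataaaagGGACTtaccagccct

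The order of the E2s in control CFU-E was read per length, as CPM per kb of the principal transcript. Ube2v1, the inactive partner of UBE2N in making Lys63-linked chains, stood first at 335 CPM per kb (range of the 3 libraries 315 to 367). Ube2c, which starts chains for the anaphase-promoting complex (APC/C) in mitosis, followed at 228 (222 to 235) and did not overlap it. Ube2l3, which serves HECT and RBR ligases, was lower again at 205 (195 to 213). The Ube2v1 value is uncertain, because the gene shares 1673 exonic bases with the read-through gene Gm20431 on the same strand. Ube2c shares 592 exonic bases with Tnnc2 on the opposite strand, and the part of this in its level was not tested.

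Below these came Ube2g2 at 137 CPM per kb (124 to 155) and Ube2d3 at 112 (106 to 116), whose ranges overlapped neither each other nor their neighbours. Ube2l6 at 49.6 (46.8 to 53.7) and Ube2t at 38.9 (36.9 to 42.1) were also each apart from the next. From Ube2j1 at 32.0 down to Ube2m at 11.6 CPM per kb, each of 13 members overlapped a neighbour in the order, so ranks there are not fixed beyond the spread between libraries. Both reticulocyte E2s were near the foot of the order in control CFU-E. Ube2o ranked 29 of 33 at 4.04 CPM per kb (3.77 to 4.52) and Ube2h ranked 30 at 3.17 (2.92 to 3.40). In CFU-E Kit-lo the mean of Ube2o was 14.0 CPM per kb, above the control mean of Ube2m, and that of Ube2h was 5.27. Ube2d2b, a Ube2d copy, was last, with 0 to 6 counts in any library.

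**Figure D1:**
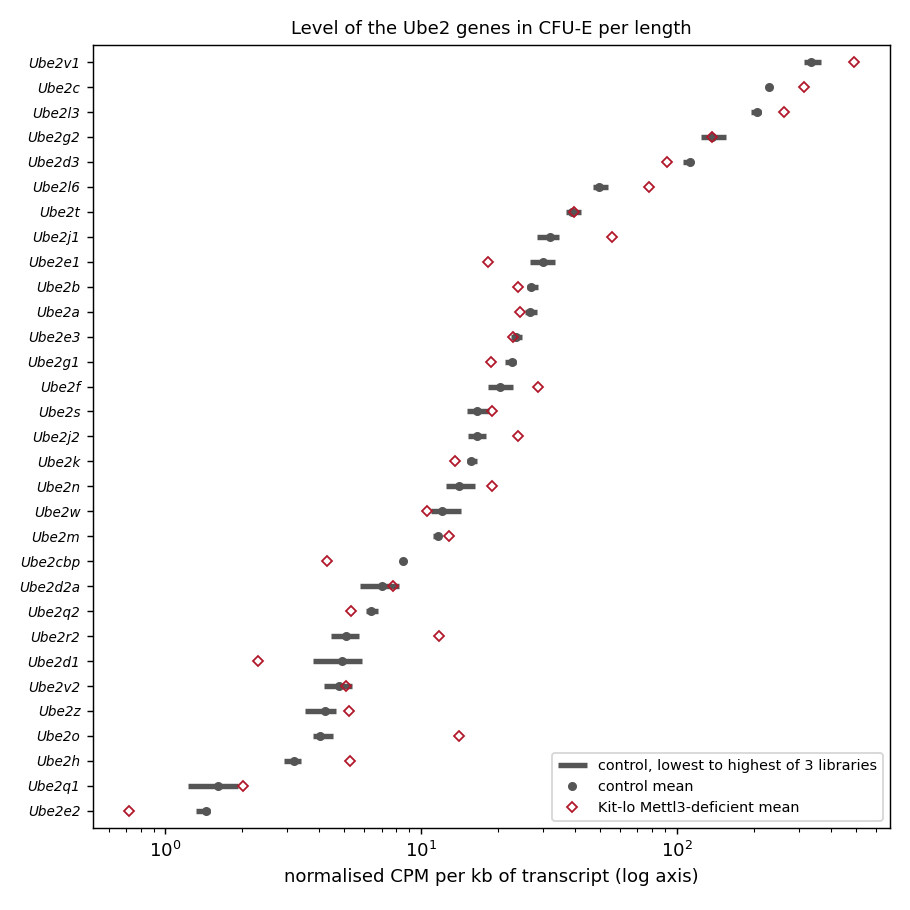
RNA-seq level of the Ube2 genes per transcript length (normalised CPM per kb, log axis), ordered by the control mean; bars run from the lowest to the highest of 3 control libraries, and diamonds are the mean of 3 CFU-E Kit-lo libraries. Ube2o moved from 4.04 to 14.0 CPM per kb, and Ube2d2b, with 0 counts in a control library, is not drawn.

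Kit-lo Mettl3-deficient cells were then compared with control CFU-E. Of 34 members tested, 5 rose (14.7%) and 3 fell (8.82%), by a fold of at least 1.5 and an adjusted p under 0.05 by the quasi-likelihood test of edgeR, adjusted over 11979 genes (Benjamini-Hochberg). Of all genes tested, 12.1% were called higher and 9.83% lower, so the shares of members called were near the background. Ube2o, Ube2r2, Ube2j1, Ube2h and Ube2l6 rose, and Ube2d1, Ube2cbp and Ube2e1 fell. Ube2d2b did not pass the filter on low counts.

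Without the fold threshold, 11 members were higher (32.4%), where 17.6% of all genes were, and 4 were lower (11.8%), where 16.9% of all genes were. Every Kit-lo library lay above every control library for 14 members (41.2%), against 23.5% of all genes, and below for 8 (23.5%), against 24.0%. The median log2 fold change was 0.11 over the members and 0.01 over all genes.

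**Figure D2:**
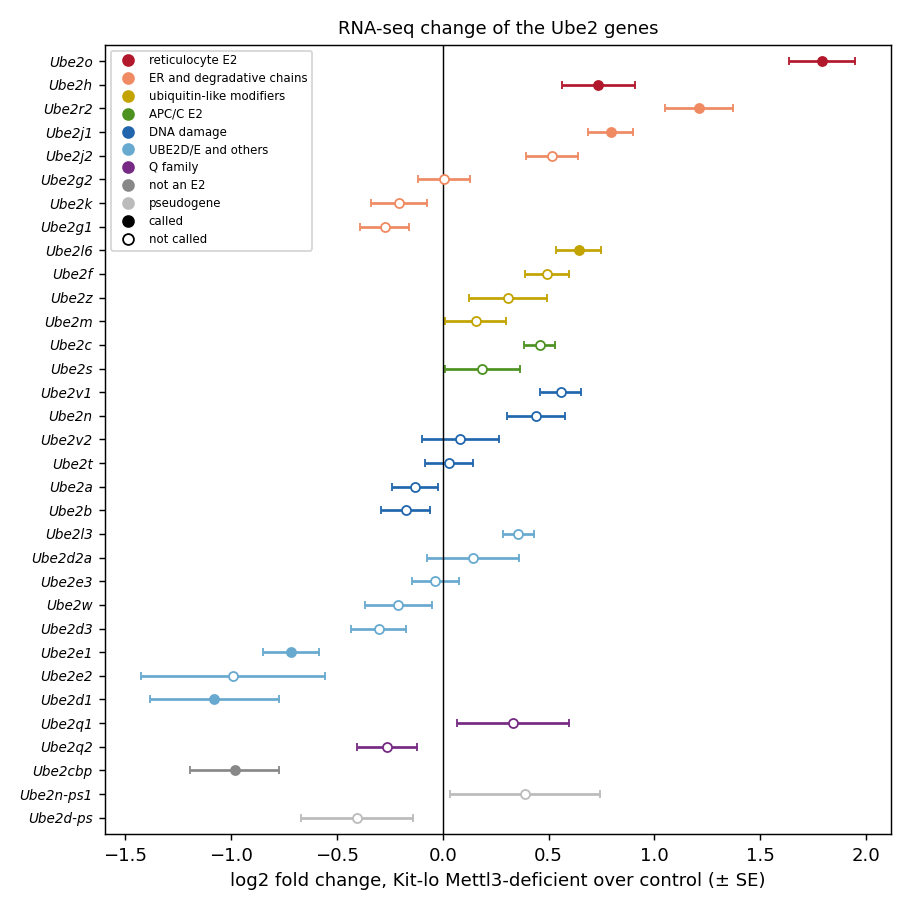
Log2 fold change of CFU-E Kit-lo over control CFU-E with its standard error for 33 of the Ube2 genes tested, grouped and coloured by role; filled points passed the fold and adjusted p thresholds. The 5 filled points on the right are Ube2o, Ube2h, Ube2r2, Ube2j1 and Ube2l6, and those on the left are Ube2e1, Ube2d1 and Ube2cbp.

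Both reticulocyte E2s rose. Ube2o (chr11:116537740-116581447, minus strand) measured 19.9, 23.5 and 19.6 CPM in control CFU-E against 62.5, 67.5 and 88.2 CPM in CFU-E Kit-lo. Every Kit-lo library was above every control library by a wide margin. This is a log2 fold change of 1.79 (SE 0.16), with an adjusted p of 2.4e-05 from edgeR, and the largest change among the 34 members tested.

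Ube2h (chr6:30211289-30304539, minus strand) was at 13.6, 15.8 and 14.8 CPM in control and at 20.6, 23.7 and 29.4 CPM in Kit-lo libraries. The groups did not overlap, and the Kit-lo libraries were spread more widely than the control libraries. Its log2 fold change was 0.74 (SE 0.17, adjusted p = 0.00803 from edgeR).

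Among the E2s for ubiquitin-like proteins, Ube2l6 rose. It is the E2 for ISG15, an interferon-induced modifier, and is also a gene of late erythroid cells. Ube2l6 (chr2:84798828-84810335, plus strand) was at 75.4, 83.8 and 72.9 CPM in control and at 125, 107 and 130 CPM in Kit-lo libraries, again without overlap. This gave a log2 fold change of 0.64 (SE 0.11, adjusted p = 0.00117 from edgeR).

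Other E2s of this class did not pass both thresholds. Ube2f, one of the E2s for NEDD8, had a log2 fold change of 0.49 (adjusted p = 0.00468 from edgeR), under the fold threshold. For Ube2m, the other NEDD8 E2, it was 0.16, and for Ube2z, which is loaded by the E1 UBA6, 0.31.

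Ube2o, Ube2h and Ube2l6 were chosen from general knowledge as members induced when erythroid cells mature. The list may not be complete, as the other members were not examined for this. The median log2 fold change of these 3 was 0.74, that of the other 31 members tested was 0.03 and that of all genes was 0.01. As the list was chosen with earlier results of these data known, this is a description without a test. Of the other members, 2 of 31 were called higher (6.45%) and 3 lower (9.68%), against the background of 12.1% and 9.83%. The summed level of erythroid markers, above, moved in the same direction between the same libraries, and its part in these changes was not tested.

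Of the 6 E2s of the endoplasmic reticulum and of degradative chains, 2 rose (33.3%), where 12.1% of all genes did. Groups this small are described, not tested. Ube2r2, a close relative of CDC34 that builds Lys48-linked chains with cullin-RING ligases, was at 18.2, 16 and 20.6 CPM in control and at 35.4, 42.8 and 48.6 CPM in Kit-lo libraries. The groups did not overlap, and the log2 fold change was 1.21 (SE 0.16, adjusted p = 0.000327 from edgeR). Ube2r2 lies at chr4:41135743-41193380 on the plus strand. Among the members tested, the change in Ube2o alone was larger.

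Ube2j1 (chr4:33031416-33052363, plus strand), anchored in the membrane of the endoplasmic reticulum where it takes part in the disposal of misfolded proteins, was at 117, 99.97 and 122 CPM in control and at 174, 207 and 208 CPM in Kit-lo libraries. The groups did not overlap, and the log2 fold change was 0.79 (SE 0.11, adjusted p = 0.000376 from edgeR). Its relative Ube2j2 had a log2 fold change of 0.52 (adjusted p = 0.00898 from edgeR), under the fold threshold, with the groups apart. The other 3, the degradative E2s Ube2g2, Ube2k and Ube2g1, had log2 fold changes of 0.01, -0.21 and -0.27, and their groups overlapped.

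Of the UBE2D and UBE2E families and other broadly acting E2s, 8 were tested and 2 fell (25.0%), where 9.83% of all genes did. Ube2d1 (chr10:71254980-71285262, minus strand), of the family that serves many RING ligases, was at 7.18, 5.38 and 8.42 CPM in control and at 2.49, 4.13 and 3.29 CPM in Kit-lo libraries. It was low in both groups, which did not overlap. Its log2 fold change was -1.08 (SE 0.31, adjusted p = 0.0204 from edgeR), and the adjusted p reached 0.0934 when a control library was left out.

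Ube2e1 (chr14:18282722-18331859, minus strand) was at 46.7, 42.6 and 37.4 CPM in control and at 27.1, 26.5 and 23.6 CPM in Kit-lo libraries, without overlap. Its log2 fold change was -0.72 (SE 0.13, adjusted p = 0.00239 from edgeR). It shares 718 exonic bases with Nkiras1 on the opposite strand, and the sources used here do not state whether the counting used strand. Its relative Ube2e2 was lower in every Kit-lo library, with a log2 fold change of -0.99 (SE 0.43), but with means of 2.20 and 1.10 CPM the adjusted p was 0.108 (edgeR). Ube2e3, the third of the family, had a log2 fold change of -0.04.

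The UBE2D genes did not move together. Ube2d3, the most abundant of them at 430 ± 21 CPM in control (SD, n = 3), had a log2 fold change of -0.30 (adjusted p = 0.1 from edgeR), and Ube2d2a one of 0.14. Coding sequences of the UBE2D genes are 74.4% to 92.7% identical, the highest value being that of Ube2d2a with Ube2d2b. Ube2d1 is 74.4% to 77.3% identical to the others. The pseudogene Ube2d-ps had a log2 fold change of -0.41. Whether reads are shared among these genes was not tested, so their values are uncertain. Ube2l3 had a log2 fold change of 0.36 (adjusted p = 0.00437 from edgeR), under the fold threshold, and shares 1670 exonic bases with Ydjc on the opposite strand. Ube2w, which ubiquitylates the amino terminus of proteins, had one of -0.21.

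Ube2cbp (chr9:86307306-86464950, minus strand), the E3-type prefix match, fell. It was at 15.0, 15.0 and 15.5 CPM in control and at 9.77, 7.04 and 6.21 CPM in Kit-lo libraries, so the groups did not overlap, and had a log2 fold change of -0.98 (SE 0.21, adjusted p = 0.00525 from edgeR).

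The E2s of mitosis and of DNA damage tolerance follow. Ube2c was higher in every Kit-lo library, at 302 ± 13.8 CPM (SD, n = 3) against 220 ± 6.16 CPM (SD, n = 3) in control. Its log2 fold change of 0.46 (adjusted p = 0.00107 from edgeR) was under the fold threshold. Ube2s, which extends the Lys11-linked chains that UBE2C begins, had one of 0.19, and its groups overlapped.

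UBE2N and its partner UBE2V1 or UBE2V2 make Lys63-linked chains in DNA damage tolerance and in signalling. Ube2v1 had a log2 fold change of 0.56 (adjusted p = 0.00173 from edgeR), just under the fold threshold on this scale of 0.585, and Ube2n one of 0.44 (adjusted p = 0.0314 from edgeR), each with the groups apart. Ube2v2 had one of 0.08. Ube2a and Ube2b, the RAD6 enzymes that act with RAD18 on PCNA and with RNF20 on histone H2B, were a little lower in every Kit-lo library, with log2 fold changes of -0.13 and -0.17 that did not pass the test. Ube2t, the E2 of the Fanconi anaemia pathway, had one of 0.03.

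The Q family was low. Ube2q1 had a log2 fold change of 0.33 at a mean of 4.92 CPM in control, and Ube2q2 one of -0.26 at 22.1 CPM. Neither passed the test. The pseudogene Ube2n-ps1 had a log2 fold change of 0.39 at 2.17 CPM in control.

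**Figure D3:**
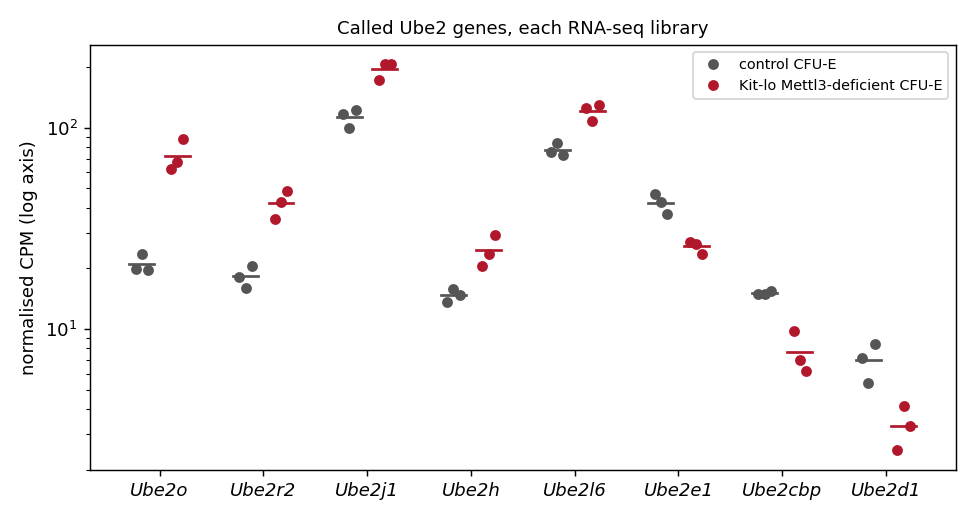
Normalised CPM (log axis) of the 8 Ube2 genes called in RNA-seq, in each of 3 control CFU-E (grey) and 3 CFU-E Kit-lo (red) libraries, with a bar at the group mean. The groups do not overlap for any of the 8, which were chosen by their calls in these same libraries. The genes run from Ube2o on the left (mean 21 against 72.8 CPM) to Ube2d1 on the right (6.99 against 3.30 CPM).

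The other enzymes of the pathway were taken from fixed lists of 106 genes, of which 104 were tested. Of these, 9 rose (8.65%) and 7 fell (6.73%), where 12.1% and 9.83% of all genes did, and their median log2 fold change was -0.09 against 0.01 over all genes. The counts for each list below are small and are read against these shares. Of 9 E1 genes, 2 fell. Uba1, the main E1 for ubiquitin, was one of them, with a log2 fold change of -0.67 (adjusted p = 0.000946 from edgeR).

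Of 7 other E2s, whose symbols do not begin with Ube2, Cdc34 rose, with a log2 fold change of 0.61 (adjusted p = 0.00601 from edgeR). Atg3 and Aktip fell, and the larger fall was in Aktip, an E2 variant without catalytic activity, at -1.32 (adjusted p = 0.0322 from edgeR). Of 11 genes for ubiquitin and its relatives, Rps27a fell and no other was called. It encodes ubiquitin fused to a ribosomal protein and had a log2 fold change of -0.66 (adjusted p = 0.000537 from edgeR).

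Ligases that work with the called E2s were read next. Of 11 genes of the CTLH ligase, the partner of UBE2H, 2 rose (18.2%), Ranbp10 and Ypel5, where 12.1% of all genes did. Ranbp10 went from 59.5 ± 4.47 CPM (SD, n = 3) in control to 152 ± 17.8 CPM (SD, n = 3) in Kit-lo cells, a log2 fold change of 1.35 (adjusted p = 1.77e-05 from edgeR), and Ypel5 had one of 1.25 (adjusted p = 0.000174 from edgeR). Of 17 APC/C genes, 3 rose (17.6%), namely Fbxo5, Cdc26 and Anapc15. The largest rise was in Fbxo5, which encodes the APC/C inhibitor EMI1, with a log2 fold change of 1.21 (adjusted p = 3.18e-05 from edgeR).

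Of 33 other partner ligases tested, Rnf168, which ubiquitylates histones at DNA breaks, rose and Cul4b, a cullin scaffold, fell. The log2 fold changes were 0.92 (adjusted p = 0.0183 from edgeR) and -0.63 (adjusted p = 0.0124 from edgeR), and the groups overlapped for Rnf168. Of 16 deconjugating enzymes tested, the SUMO protease Senp5 had the largest rise, a log2 fold change of 0.78 (adjusted p = 0.00413 from edgeR). Otub2 also rose, although its groups overlapped. Uchl3, a carboxy-terminal hydrolase of ubiquitin and NEDD8, fell, with a log2 fold change of -0.73 (adjusted p = 0.00164 from edgeR).

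The m6A experiment asked which mRNAs of control CFU-E were enriched by the antibody. Of 32 members tested, 2 were higher in IP than in input (6.25%), Ube2h and Ube2w, and 5 were lower (15.6%), Ube2s, Ube2e2, Ube2j2, Ube2m and Ube2e3, at an adjusted p under 0.05 by the same edgeR test over 11447 genes. Of all genes tested, 7.90% were called higher and 7.86% lower. Both IP libraries lay above both input libraries for 6 members (18.8%), against 32.2% of all genes, and below for 12 (37.5%), against 28.7%. The median log2 ratio of IP over input was -0.09 over the members and 0.06 over all genes, and the sign of the former changed with the normalisation. These values compare the share of a gene's RNA in the IP with its share in input, and a value below 0 does not mean that the mRNA carries no m6A.

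**Figure D4:**
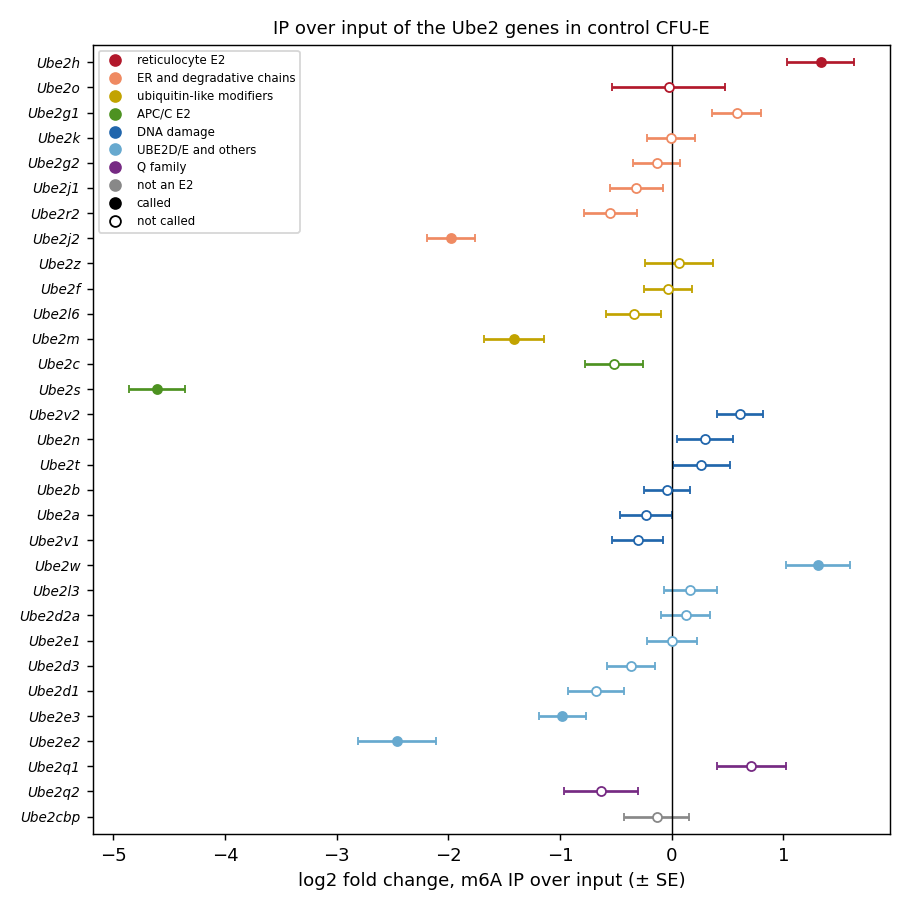
Log2 fold change of m6A IP over input with its standard error for 31 of the Ube2 genes tested in control CFU-E, grouped and coloured by role; filled points had an adjusted p under 0.05. Ube2h (1.33) and Ube2w (1.31) are the filled points on the right, and Ube2s (-4.61) is the farthest to the left.

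Ube2h was at 6.0 and 9.44 CPM in the input libraries and at 20.9 and 17.8 CPM in the IP libraries. Both IP libraries were above both input libraries, and the log2 fold change was 1.33 (SE 0.30, adjusted p = 0.0148 from edgeR). Without input replicate 1 the adjusted p was 0.168. The GGACT density of its transcript, 1.07 per kb over the copies printed above, was at percentile 52.3 of all genes.

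Ube2w was at 7.23 and 5.73 CPM in input and at 17.6 and 14.6 CPM in IP libraries, again without overlap. The log2 fold change was 1.31 (SE 0.28, adjusted p = 0.0125 from edgeR), and the adjusted p rose to as much as 0.0774 when an input library was left out. Ube2w lies at chr1:16540790-16619489 on the minus strand, and its principal transcript of 2181 bases held no GGACT. Its exons share 253 bases with Gm38342 on the opposite strand, and the part of this in its values was not tested.

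Ube2s (chr7:4794546-4812590, minus strand) was far lower in IP, at 665 and 767 CPM in input and at 30.4 and 28.3 CPM in IP libraries. The log2 fold change was -4.61 (SE 0.25, adjusted p = 3.47e-06 from edgeR), the farthest from 0 of the members. Its level in input is uncertain. The RNA-seq libraries of the same cell type, made by another protocol, held Ube2s at 20.5 ± 2.05 CPM (SD, n = 3). The input mean was 34.8 times that, a ratio above that of 99.2% of genes tested in both experiments. Its exons share 183 bases with Rpl28, a gene on the opposite strand, and Rpl28 was at 478 CPM in input, 415 CPM in IP and 6.95 CPM in control RNA-seq. Whether reads of Rpl28 were counted for Ube2s was not tested. The Ube2s transcript held 3 GGACT, and its density of 2.42 per kb was at percentile 94.5 of all genes.

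Ube2e2 (chr14:18573575-18894267, minus strand) was at 10.2 and 7.14 CPM in input and at 1.58 and 1.56 CPM in IP libraries. The groups did not overlap, and the log2 fold change was -2.46 (SE 0.35, adjusted p = 0.00113 from edgeR). The GGACT density of Ube2e2, 0.657 per kb, was at percentile 26.7 of all genes. Its relative Ube2e3 (chr2:78868124-78921293, plus strand) was at 257 and 258 CPM in input and at 138 and 123 CPM in IP libraries, with a log2 fold change of -0.98 (SE 0.21, adjusted p = 0.0118 from edgeR). The third of the family, Ube2e1, had means of 156 CPM in input and 157 CPM in IP, which differed by less than the spread between libraries.

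Ube2j2 (chr4:155943831-155959604, plus strand) was at 311 and 309 CPM in input and at 81.2 and 76.4 CPM in IP libraries. The replicates lay close together and the groups were far apart, with a log2 fold change of -1.98 (SE 0.21, adjusted p = 0.000169 from edgeR). Its transcript held 7 GGACT. The other E2 of the endoplasmic reticulum, Ube2j1, had a log2 fold change of -0.32 (adjusted p = 0.384 from edgeR).

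Ube2m (chr7:13035120-13038275, minus strand), the NEDD8 E2 for most cullins, was at 70.6 and 53.7 CPM in input and at 19.5 and 27.2 CPM in IP libraries, without overlap. This is a log2 fold change of -1.41 (SE 0.27, adjusted p = 0.00606 from edgeR). Calls for Ube2m and Ube2e3 were lost when an input library was left out, with adjusted p-values of up to 0.0612 and 0.0968 from edgeR. Ube2f, the other NEDD8 E2, had a log2 fold change of -0.03.

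The remaining 25 members were not called in this fit, which has no replicate block. Among them Ube2v2 (0.61, adjusted p = 0.0714 from edgeR) and Ube2g1 (0.58, adjusted p = 0.098 from edgeR) had both IP libraries above input, and Ube2d1 (-0.67, adjusted p = 0.094 from edgeR) had both below. Ube2o could not be judged well in this experiment. It was at 2.20 and 2.30 CPM in input and at 3.19 and 1.11 CPM in IP libraries. Its input mean was 0.107 of its mean in control RNA-seq, where the median of this ratio was 2.35 over the members and 0.612 over all genes. The 2 experiments used unlike library protocols, and the part of this in the ratio was not tested. Its log2 fold change was -0.03 (SE 0.50). That of Ube2l6 was -0.34 (SE 0.25), and its libraries overlapped.

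**Figure D5:**
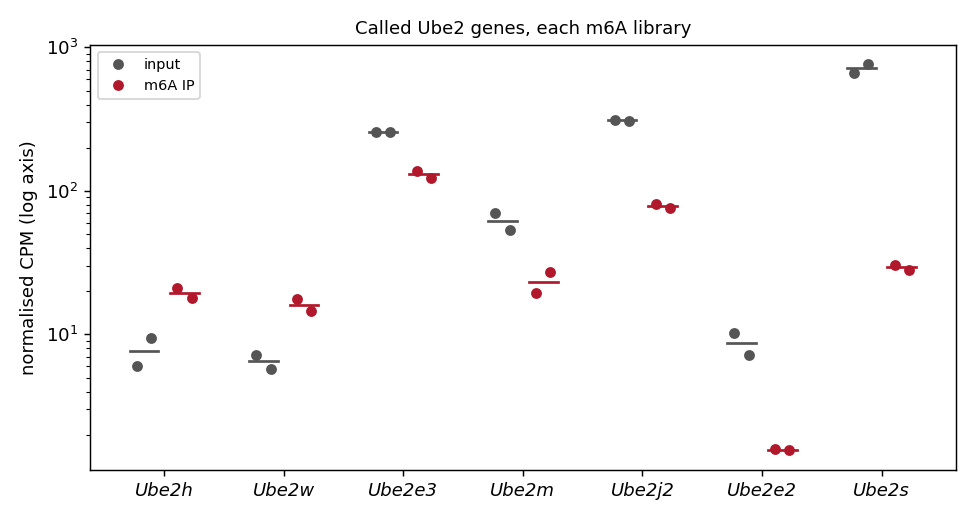
Normalised CPM (log axis) of the 7 Ube2 genes called in IP over input, in each of 2 input (grey) and 2 IP (red) libraries of control CFU-E, with a bar at the mean. Ube2h and Ube2w are higher in both IP libraries, and the other 5 are lower, Ube2s by the most (716 against 29.3 CPM).

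The features of the transcripts were set beside these ratios as a description over genes, which are not independent replicates. Of the 32 members, 28 held at least 1 GGACT on the transcript strand (87.5%), as did 92.0% of 10658 genes tested in both experiments, and the median density was 0.996 and 1.04 per kb. Among the members the ratio of IP over input had a Spearman's rho of -0.29 with GGACT density, and 0.39 with the length of the 3′UTR, while over all these genes the values were -0.08 and 0.22. Members share libraries, and length and motif number move together, so these values are not a result about m6A sites.

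Members called in the RNA-seq were set beside their m6A ratio. Of the 3 that fell in CFU-E Kit-lo, Ube2e1, Ube2cbp and Ube2d1, the log2 fold changes of IP over input were 0.00, -0.13 and -0.67. Of the 5 that rose, Ube2h had 1.33, Ube2o -0.03, Ube2j1 -0.32, Ube2l6 -0.34 and Ube2r2 -0.55. Over the 32 members the Spearman's rho between the changes was 0.04, and over 10773 genes it was -0.03.

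Elsewhere in the pathway, 10 of 104 listed genes were higher in IP (9.62%) and 8 lower (7.69%), near the 7.90% and 7.86% of all genes. Their median log2 fold change was 0.19, and that of all genes 0.06. Uba3, part of the E1 for NEDD8, was the E1 gene with the largest ratio at 1.28. Of the other E2s, Birc6, a giant E2 and E3 hybrid like UBE2O, had 1.27 and Cdc34 -1.62. Mkln1, a CTLH subunit, had 1.44.

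Of the APC/C genes, Anapc4 had the largest ratio, 1.47, and Fzr1, an activator, the smallest, -1.56. Of the partner ligases these were Cul2 at 1.77 and Syvn1, a ligase of the endoplasmic reticulum, at -1.44. The SUMO protease Senp6 had -2.69. All of these passed an adjusted p of 0.05 in edgeR, but the IP libraries of Cul2 (35.5 and 8.89 CPM) and Anapc4 (44.0 and 15.2 CPM) were far apart from each other.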

How the data were processed

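The authors filtered reads with fastp 0.23.4, quantified transcripts with kallisto 0.48.0, summed them per gene with tximport and deposited unnormalised estimated counts, which were whole numbers. The paper names the mm10 mouse reference, while the processing notes of the samples list both mm10 and GRCm39. Smart-seq2 with oligo-dT was used for RNA-seq. SLIM-seq libraries carried a molecular identifier and were amplified with a 3′ primer after fragmentation. The use of the identifier and the strand setting of the counting are not given in the sources used here.

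Each experiment was fitted alone with edgeR 4.0.16 (TMM, filterByExpr, glmQLFit and glmQLFTest) in R 4.3.3, with no block. RNA-seq calls needed a fold of at least 1.5 and an adjusted p under 0.05, and m6A calls an adjusted p under 0.05. Standard errors were the log2 fold change divided by the square root of F. DESeq2 1.42.0 was an alternative; the study's TPM filter was not applied. Scripts were tested on simulated data. The biological coefficient of variation was 19.1% in RNA-seq and 21.9% in m6A libraries. This is larger than counting error except for genes of low counts, such as Ube2e2 with 15, 23 and 27 counts in the Kit-lo libraries. Replicate numbers were not used as pairs, since the labels tie them to no common sample, and no library was a copy of another.

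Genes named were every Ube2 symbol, by role, with every library for those called and for Ube2o, Ube2h and Ube2l6, and the called gene with the largest rise and fall of each pathway list; the other pathway genes were chosen after their values were seen. A member and a gene of a pathway list are counted but not reported by name here. Members and lists were chosen with earlier results of these data known. Coordinates and transcripts (principal by APPRIS) come from GENCODE M21 on GRCm38, where all 35 symbols matched. Plots were made in Python 3.11.15 with matplotlib 3.10.9.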

Additional observations from a re-analysis of the deposited data

How the results depend on the processing

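In RNA-seq, the 5 members called higher and 3 called lower were also called by DESeq2, by edgeR with DESeq2's size factors, with upper-quartile factors, without the count filter and with a replicate block. With no fold threshold 11 were higher. Leaving out each library in turn gave 5 to 7 higher and 2 to 3 lower, a median of 0.60 to 0.84 for the erythroid-induced members and of -0.01 to 0.10 for the others. Over all genes these fits called 1201 to 1513 higher and 979 to 1247 lower. Ube2d1 was lost without control replicate 1 or 3.

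In m6A, 4 members were higher in IP with upper-quartile factors, where 1451 of all 11447 genes were, against 904 in the main fit. The members' median ratio of -0.09 became 0.0701 with library sizes only and 0.0426 with upper-quartile factors, where the median of all genes moved from 0.06 to 0.21 and 0.18, so relative to all genes it stayed lower. The share of higher among called genes rose with them from 50.1% to 60.6% and 65.8%. Leaving out each library gave 0 to 2 members higher, 3 to 6 lower and a median of -0.148 to -0.082. The 0 came without input replicate 1, by edgeR, where 2 members had an unadjusted p under 0.05, and 3 were lower; DESeq2 was not run without it. Without input replicate 2, Ube2h alone was higher. A lone library was assumed to vary like the other group. Calls over all genes also changed between these fits, and they fell in both directions without input replicate 1. The loss of member calls there is therefore not a result about the family.

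Replicate numbers are shared by the groups, but the labels tie them to no common sample. Deviations of same-numbered libraries correlated at 0.03, -0.02 and -0.07 in RNA-seq, and at 0.21 in m6A with 2 pairs. The replicate block left the RNA-seq calls as they were (5 and 3, medians 0.72 and 0.03). In m6A it gave 4 higher, 8 lower and a median of -0.14, adding Ube2g1 and Ube2v2 above and Ube2c, Ube2d1 and Ube2r2 below input. Calls over all 11447 genes grew with the block too, from 904 to 1783 higher and from 900 to 1755 lower, so the added members are not a result about the family.

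Of 728 values of single members under an alternative, 705 kept their direction where called and their side of the threshold, 8 lost a call, 15 gained one and 0 reversed. Most of these values are of members not called in the main fit, which count as kept when no call appears, whatever their sign. The lost calls were of Ube2d1 in RNA-seq and of Ube2h, Ube2w, Ube2m and Ube2e3 in m6A. With 2 libraries a group, and means of a few CPM for Ube2o, Ube2h and Ube2w, depth and replicate number limit the m6A values.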
